A study of Mus musculus with 9 samples.

Results

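The 10 genes examined here encode the receptors for interleukin-6 and interleukin-10 (Il6ra, Il6st, Il10ra, Il10rb), the Janus kinases bound to them (Jak1, Jak2, Tyk2), the transcription factor Stat3 and its feedback inhibitors Socs1 and Socs3. They were chosen by name as the signalling genes upstream of C/EBPδ, with earlier results of these data known. All 10 symbols matched 1 gene each among the 55487 counted. In this pathway, IL-6 bound to its receptor chain (Il6ra) joins the shared chain gp130 (Il6st), and IL-10 brings together Il10ra and Il10rb. The kinases JAK1, JAK2 and TYK2 on the inner side of these receptors phosphorylate STAT3, which enters the nucleus and switches on genes that include Cebpd, the gene for C/EBPδ, and Socs3. SOCS3 binds gp130 and ends the IL-6 signal but does not act on the IL-10 receptor, a difference by which macrophages respond to IL-6 and to IL-10 in different ways.

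RNA was sequenced from RAW264.7 cells, a mouse macrophage line, in 3 libraries each of wild-type cells, C/EBPδ knock-out cells and cells with a C/EBPδ that lacks its transactivation domain (ΔTAD). Both edited genotypes are homozygous and were made with CRISPR guides that cut on either side of this domain, and clones in which the deletion shifted the reading frame served as knock-out cells. The edited cells were grown out from single cells. The design text speaks of 3 independent clones without naming their genotype, and the third library carries the number 5 in the knock-out and ΔTAD titles and 4 in the wild-type titles but 3 in the donor labels. Which libraries of a genotype are separate clones is not given in the sources used here, so p-values measure only the spread between these libraries, which may be technical, and differences between clones and effects of the edit cannot be told apart. All cells were kept in the same medium with fetal calf serum and received no stimulus, so receptor genes were measured without added IL-6 or IL-10.

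Library totals over all genes ran from 16113306 to 20981829 counts. Levels are given as CPM, counts relative to library size, scaled by TMM, and 3 counts, the smallest number taken as detected, correspond to 0.143 to 0.21 CPM. A gene was called where its p-value from edgeR's quasi-likelihood test, adjusted after Benjamini and Hochberg over the 14312 genes tested, was under 0.01. The edited gene, Cebpd, had between 70 and 130 counts in every library and was not called (adjusted p = 0.085 in knock-out and 0.0931 in ΔTAD against wild-type macrophages). The deletions leave most of its transcript in place, so its level does not check the labels. ΔTAD replicate 1 stood apart, with 11% of its counts on CT010467.1 against 0.303% to 1.16% in the other 8 libraries and a TMM factor of 0.888, and values without this library are given for the calls of the 9 tested genes in ΔTAD macrophages. Every gene of the wider lists whose fold change is given below and that was called in ΔTAD macrophages, against wild-type or knock-out, was also called without it. Of 8 macrophage markers, Mertk stayed at or under 3 counts in all 9 libraries and the other 7 were detected. Their summed level was 2400 to 2560 CPM in wild-type, 3400 to 3740 CPM in knock-out and 5770 to 5900 CPM in ΔTAD libraries, with Lyz2 as its largest part (means of 1167, 2114 and 4192 CPM). Like Lyz2, Adgre1 was called higher in both edited genotypes (means of 21.6, 58.8 and 70.9 CPM in wild-type, knock-out and ΔTAD macrophages). So were Spi1 (117.2, 143.1 and 202.8 CPM) and Cd68 (733, 805.1 and 864.5 CPM). Not all markers rose, since Fcgr1 was called lower in both (39.5, 17.8 and 28.9 CPM). Itgam was called in neither (34.4, 30.7 and 31.1 CPM) and Csf1r only as higher in ΔTAD macrophages (389, 373 and 447 CPM). The summed markers of T, B and NK cells, fibroblasts and epithelium stayed at or under 0.49 CPM, and those of neutrophils at or under 1.43 CPM. The 3 endothelial markers (Pecam1, Cdh5, Kdr) summed to 2.66 to 4.04 CPM in wild-type, 0.665 to 0.844 CPM in knock-out and 0.144 to 0.42 CPM in ΔTAD libraries. These marker sums moved with genotype beside all gene groups below, and their part in the results was not tested.

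The stretch before the RefSeq start site of a gene is where its promoter factors usually bind, and 250 bases of it are shown for 4 genes, on build GRCm38.p6 and 5′ to 3′ along the gene. Socs3 is shown because it fell in both edited genotypes, Il6st and Tyk2 because they rose in both, and Socs1 as the second inhibitor, which was hardly detected in any genotype. Capitals mark matches to the STAT motif TTCNNNGAA in Socs3 and to the CCAAT box in the others, each searched on both strands.
Socs3 (chr11:117969367-117969616, minus strand): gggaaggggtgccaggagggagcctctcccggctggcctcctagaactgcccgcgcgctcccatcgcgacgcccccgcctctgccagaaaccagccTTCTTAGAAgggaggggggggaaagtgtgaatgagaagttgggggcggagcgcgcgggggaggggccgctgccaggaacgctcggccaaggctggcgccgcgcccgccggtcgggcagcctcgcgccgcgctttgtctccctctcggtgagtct
Il6st (chr13:112463820-112464069, plus strand): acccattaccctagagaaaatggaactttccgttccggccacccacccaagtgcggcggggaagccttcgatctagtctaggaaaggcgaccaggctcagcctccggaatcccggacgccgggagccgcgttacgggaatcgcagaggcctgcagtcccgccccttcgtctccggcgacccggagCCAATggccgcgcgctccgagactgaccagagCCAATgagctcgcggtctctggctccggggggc
Tyk2 (chr9:21131276-21131525, minus strand): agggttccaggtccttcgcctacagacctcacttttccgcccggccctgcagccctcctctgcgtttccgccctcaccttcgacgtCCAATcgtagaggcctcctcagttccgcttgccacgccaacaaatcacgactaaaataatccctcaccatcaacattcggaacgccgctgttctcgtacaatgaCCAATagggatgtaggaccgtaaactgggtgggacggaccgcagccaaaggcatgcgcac
Socs1 (chr16:10785537-10785786, minus strand): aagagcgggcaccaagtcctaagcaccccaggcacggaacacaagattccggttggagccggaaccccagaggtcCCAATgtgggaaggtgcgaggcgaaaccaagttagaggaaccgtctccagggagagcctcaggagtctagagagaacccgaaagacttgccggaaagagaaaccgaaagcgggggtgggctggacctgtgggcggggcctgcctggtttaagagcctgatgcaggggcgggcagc
Socs3 held the only STAT match among the 8 genes for which RefSeq gave a window, TTCTTAGAA at positions -154 to -146 before the start. Over all 32851 RefSeq windows of this length (250 bases before and 50 after the start), 8.3% held this motif. The CCAAT box was found in 5 of the 8 (Il6st, Jak1, Tyk2, Stat3 and Socs1) and in 37.4% of all windows. In Il6st it stands at -65 to -61 and at -33 to -29, in Tyk2 at -164 to -160 and at -60 to -56, and in Socs1 at -175 to -171. The Tyk2 window also holds it at 10 to 14, past the start and beyond the bases shown. The C/EBP motif TTGCNNAA was in none of the 8 windows and in 10.8% of all windows, which says only that these letters are not in these stretches. The window of Socs3 lies inside the gene as GENCODE draws it, whose outermost start is at 117970047, while RefSeq places the start at 117969366. Il10ra and Il10rb had no window.

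Of the 10 genes, 9 passed the filter on low counts and Socs1 did not. Against wild-type macrophages, the IL-10 receptor genes Il10ra and Il10rb, the shared IL-6 chain Il6st and the kinase Tyk2 were higher in both edited genotypes, and Socs3 was lower in both. The test called 6 of the 9 in knock-out macrophages, 4 higher and 2 lower, and 5 of the 9 in ΔTAD macrophages, 4 higher and 1 lower. Calls were frequent among all genes tested, with 45.2% called in knock-out macrophages (22.8% higher, 22.4% lower) and 49.7% in ΔTAD macrophages (26.3% higher, 23.4% lower), so the number of called genes is no mark of this pathway. Between knock-out and ΔTAD macrophages 4 of the 9 were called, 1 higher and 3 lower in knock-out, beside 33.0% of all genes (13.9% higher, 19.1% lower). The absolute log2 fold changes of the 9 genes had medians of 0.27 (knock-out) and 0.42 (ΔTAD), against 0.24 and 0.27 over all genes tested. When ΔTAD replicate 1 was left out, the numbers called were again 6, 5 and 4. In bulk RNA, fewer cells of a type and less RNA per cell cannot be told apart, and this holds for each value below.

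**Figure D1:**
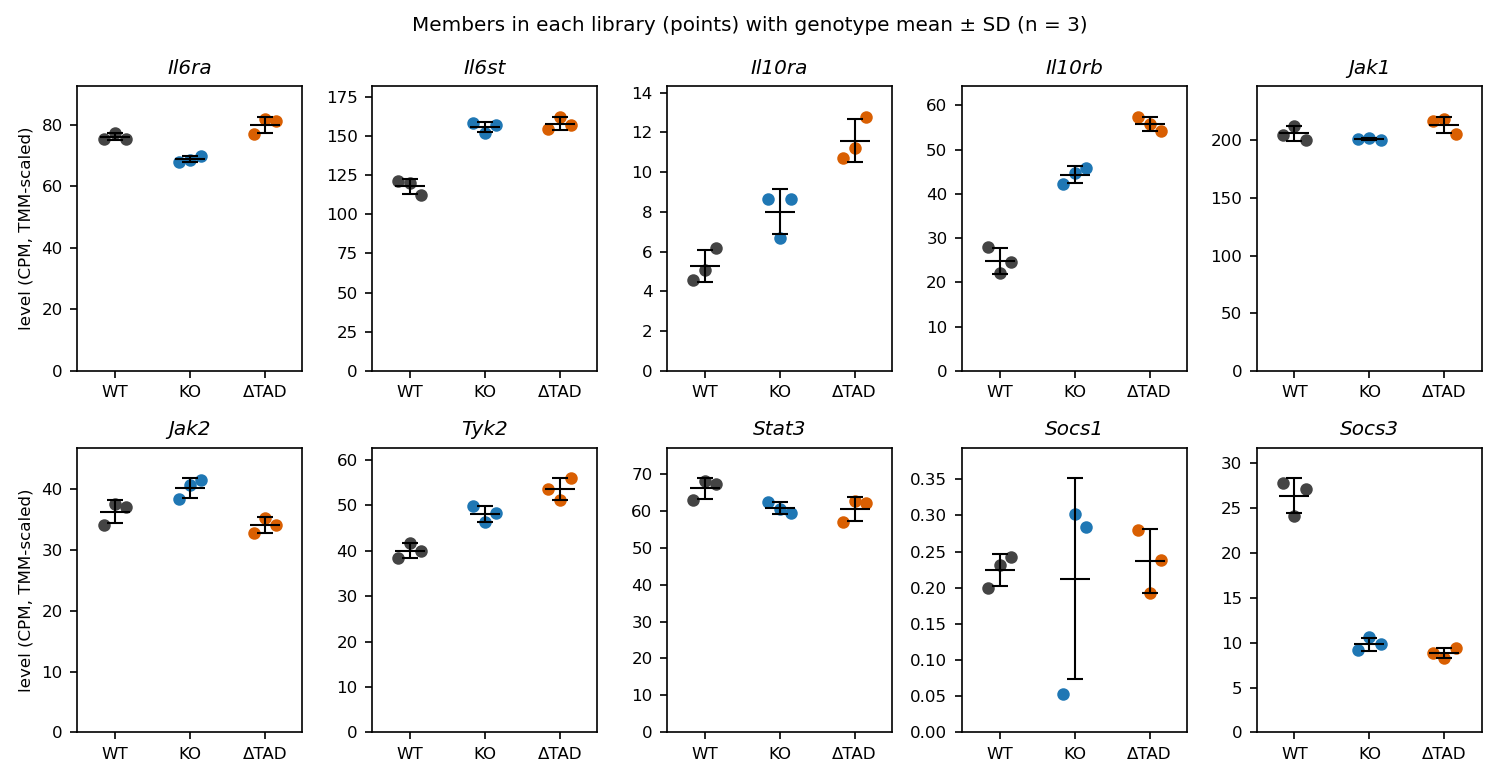
Level of each of the 10 genes (TMM-scaled CPM, each axis starting at 0) in every wild-type (WT), knock-out (KO) and ΔTAD library, 1 point per library, with the mean and SD of each genotype (n = 3). The 3 wild-type points of Socs3 lie between 24.1 and 27.8 CPM, above all 6 points of the edited genotypes, and those of Il10rb lie below them.

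The 2 IL-10 receptor genes rose in both edited genotypes, and more in ΔTAD than in knock-out macrophages. Il10rb (ENSMUSG00000022969), on the plus strand of chromosome 16 from 91406164 to 91425834, encodes the signalling chain that also serves the receptors for IL-22 and interferon lambda. Its levels were 27.9, 22.2 and 24.6 CPM in the wild-type, 42.2, 44.8 and 46.0 CPM in the knock-out and 57.5, 55.9 and 54.3 CPM in the ΔTAD libraries. The 3 genotypes did not overlap. Compared to wild-type macrophages, the log2 fold change of Il10rb was 0.83 (standard error 0.0651, adjusted p = 7.487e-11) in knock-out and 1.16 (standard error 0.0629, adjusted p = 5.518e-14) in ΔTAD macrophages, a 1.77-fold and a 2.23-fold higher level. Set against ΔTAD macrophages, knock-out macrophages had −0.33 (standard error 0.0579, adjusted p = 5.717e-05). Without ΔTAD replicate 1, the ΔTAD value of Il10rb was 1.11 and the difference between the edited genotypes −0.29, both called. Of its exon bases, 569 (14.9%) are shared with Gm21970, a gene on the same strand that had 0 counts in every library, and reads in a shared stretch may have been set aside as ambiguous by the counting.

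Il10ra (ENSMUSG00000032089), on the minus strand of chromosome 9 from 45253837 to 45269149, encodes the chain that binds IL-10 and carries the docking sites for STAT3. It had the lowest CPM of the 9 genes in wild-type and knock-out macrophages, while Socs3 was lower in ΔTAD macrophages, and had 88 to 269 counts in a library. Levels were 4.59, 5.09 and 6.18 CPM in wild-type, 8.65, 6.71 and 8.67 CPM in knock-out and 10.7, 11.2 and 12.8 CPM in ΔTAD macrophages. No library of one genotype reached into another, although knock-out replicate 2 lay close to the highest wild-type library. Its log2 fold change was 0.62 (95% interval 0.34 to 0.89, adjusted p = 0.0003318) in knock-out and 1.15 (0.90 to 1.40, adjusted p = 1.456e-08) in ΔTAD macrophages. The knock-out level was 1.45-fold lower than the ΔTAD level (log2 fold change −0.54, standard error 0.113, adjusted p = 0.0004548). Leaving out ΔTAD replicate 1 gave 1.17 for Il10ra in ΔTAD macrophages and −0.55 between the edited genotypes.

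The 2 IL-6 receptor genes did not move together. Il6st (ENSMUSG00000021756), on the plus strand of chromosome 13 from 112464070 to 112510086, encodes gp130, the signalling chain that IL-6 shares with IL-11, LIF and oncostatin M. Its 3 wild-type libraries had 121, 119.9 and 112.5 CPM. The knock-out libraries had 158.3, 152 and 156.7 CPM and the ΔTAD libraries 154.4, 162.4 and 157 CPM, so that both edited genotypes lay above wild-type and overlapped each other. Relative to wild-type, Il6st had a log2 fold change of 0.40 (standard error 0.0366, adjusted p = 1.073e-09) in knock-out and 0.42 (standard error 0.0366, adjusted p = 3.537e-10) in ΔTAD macrophages. Between the edited genotypes it was −0.02, with a 95% interval of −0.10 to 0.05 (adjusted p = 0.6601). Its CCAAT boxes are shown in the promoter above. The ΔTAD value of Il6st was 0.41 without ΔTAD replicate 1.

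Il6ra (ENSMUSG00000027947), on the minus strand of chromosome 3 from 89864059 to 89913196, encodes the chain that binds IL-6 itself. Levels were 75.3, 77.3 and 75.5 CPM in wild-type, 67.8, 68.6 and 69.8 CPM in knock-out and 76.95, 81.7 and 81.3 CPM in ΔTAD libraries. The knock-out libraries were the lowest 3 of the 9, while wild-type and ΔTAD libraries overlapped. In knock-out macrophages Il6ra fell by 0.15 on the log2 scale (standard error 0.0356, adjusted p = 0.001208). This call was lost without wild-type replicate 2 (adjusted p = 0.012) and without knock-out replicate 1 (adjusted p = 0.0119). In ΔTAD macrophages the log2 fold change was 0.08 and was not called (95% interval 0.00 to 0.15, adjusted p = 0.0609). Knock-out macrophages had less Il6ra than ΔTAD macrophages (log2 fold change −0.22, standard error 0.0353, adjusted p = 1.802e-05, and −0.22 without ΔTAD replicate 1). An antisense gene, Gm42809, shares 242 exon bases with Il6ra and had at most 3 counts in a library.

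**Figure D2:**
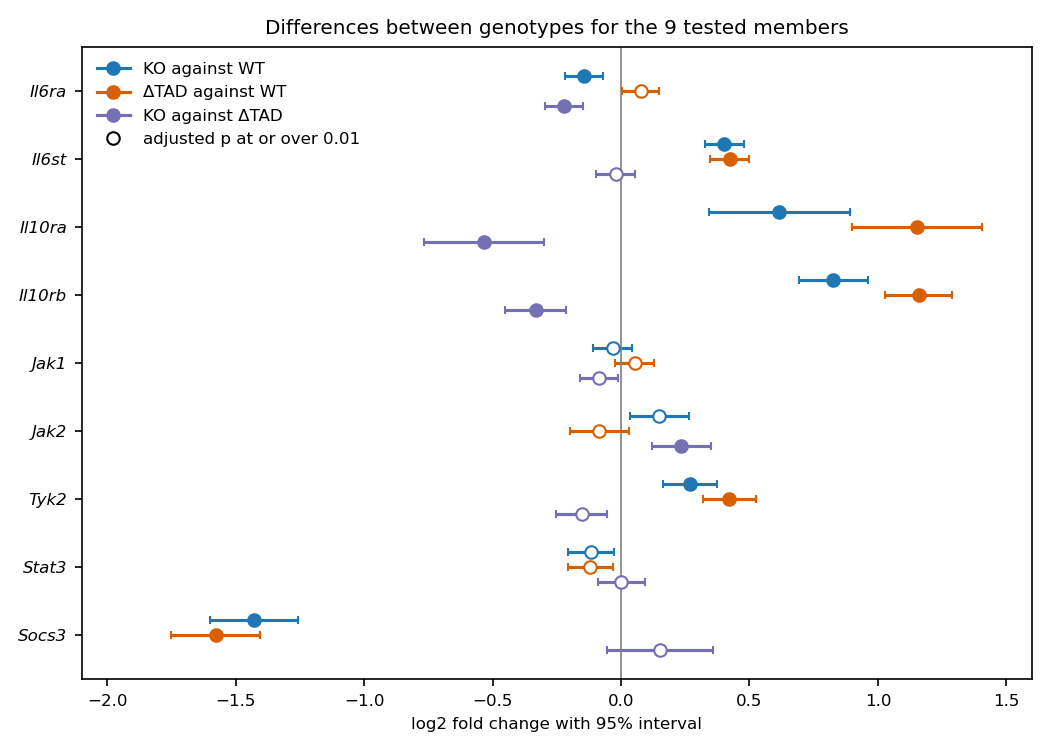
Log2 fold changes of the 9 tested genes with 95% intervals, for each edited genotype against wild-type and for the edited genotypes against each other. Filled points passed the adjusted p-value of 0.01. Socs3 lies farthest to the left at −1.43 and −1.58 against wild-type, the IL-10 receptor genes lie farthest to the right, and Jak1 and Stat3 have no filled point.

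Of the kinases, Tyk2 rose in both edited genotypes and the other two did not pass the test against wild-type macrophages. Tyk2 (ENSMUSG00000032175), on the minus strand of chromosome 9 from 21104068 to 21131243, encodes the kinase that sits on Il10rb. Its levels were 38.4, 41.8 and 39.8 CPM in wild-type, 49.8, 46.2 and 48.2 CPM in knock-out and 53.5, 51.1 and 56.0 CPM in ΔTAD libraries, without overlap between the genotypes. Relative to wild-type, Tyk2 had a log2 fold change of 0.27 (standard error 0.0509, adjusted p = 7.999e-05) in knock-out and 0.42 (standard error 0.0499, adjusted p = 8.348e-08) in ΔTAD macrophages, and 0.39 in ΔTAD macrophages without replicate 1. Between knock-out and ΔTAD macrophages it was −0.15 (95% interval −0.25 to −0.05) and missed the threshold (adjusted p = 0.01269). This difference passed the threshold without ΔTAD replicate 2 (adjusted p = 0.00677) and also without the filter on low counts. The antisense gene 1700084C06Rik shares 554 exon bases with Tyk2 (8.07% of its exons) and had 2 to 16 counts in a library.

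Jak1 (ENSMUSG00000028530), on the minus strand of chromosome 4 from 101152367 to 101265282, encodes the kinase used by Il10ra and gp130. It was the most even of the 9 genes, at 204.9, 212.7 and 200 CPM in wild-type, 201.1, 201.9 and 200.5 CPM in knock-out and 216.8, 218.3 and 205.6 CPM in ΔTAD libraries. Its log2 fold change was −0.03 (95% interval −0.11 to 0.04, adjusted p = 0.4701) in knock-out and 0.05 (−0.02 to 0.13, adjusted p = 0.2219) in ΔTAD macrophages. The ΔTAD value was 0.01 without replicate 1. Both intervals thus leave room for a change of at most 0.13 on the log2 scale in either direction. Between the edited genotypes it was −0.09 (adjusted p = 0.05943).

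Jak2 (ENSMUSG00000024789), on the plus strand of chromosome 19 from 29251828 to 29313080, encodes the kinase that gp130 and the interferon gamma receptor use. Its libraries had 34.2, 37.6 and 37.1 CPM in wild-type, 38.4, 40.7 and 41.5 CPM in knock-out and 32.7, 35.3 and 34.2 CPM in ΔTAD macrophages. Its log2 fold change was 0.15 in knock-out (95% interval 0.03 to 0.26, adjusted p = 0.02525) and −0.08 in ΔTAD macrophages (−0.20 to 0.03, adjusted p = 0.2056), neither of which was called. The direct comparison of knock-out with ΔTAD macrophages was called at 0.23 (standard error 0.0556, adjusted p = 0.001432), and at 0.24 without ΔTAD replicate 1. The call was lost without knock-out replicate 3, at 0.20 (adjusted p = 0.0137).

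Stat3 (ENSMUSG00000004040), on the minus strand of chromosome 11 from 100885098 to 100939540, encodes the transcription factor on which both receptors converge. Its levels were 62.8, 68.1 and 67.2 CPM in wild-type, 62.4, 60.3 and 59.4 CPM in knock-out and 56.8, 62.5 and 62.0 CPM in ΔTAD libraries. All 6 edited libraries lay below the 3 wild-type libraries, but the gap was small. The log2 fold change of Stat3 was −0.12 in both edited genotypes (adjusted p = 0.02366 in knock-out and 0.01986 in ΔTAD macrophages), with 95% intervals of −0.21 to −0.03 in both, and missed the threshold of 0.01. Without wild-type replicate 1, the lowest of the wild-type libraries, it was called in both (−0.15, adjusted p = 0.00982 in knock-out, and −0.15, adjusted p = 0.00676 in ΔTAD macrophages). Between knock-out and ΔTAD macrophages Stat3 differed by 0.00 (95% interval −0.09 to 0.09, adjusted p = 0.9823). The ΔTAD value of Stat3 was −0.11 (adjusted p = 0.045) without ΔTAD replicate 1. It shares 72 exon bases with Stat5a on the opposite strand, and the strand setting of the counting is not given in the sources used here.

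Socs3 (ENSMUSG00000053113), on the minus strand of chromosome 11 from 117966079 to 117970047, fell by more than any other of the 9 genes. Its protein carries an SH2 domain that docks on gp130 and a SOCS box that marks bound proteins for degradation. The 3 wild-type libraries had 558, 417 and 448 counts, which is 27.8, 24.1 and 27.1 CPM. The knock-out libraries had 173, 175 and 173 counts (9.12, 10.6 and 9.80 CPM) and the ΔTAD libraries 126, 172 and 198 counts (8.81, 8.26 and 9.42 CPM). Every edited library was below every wild-type library, and the edited genotypes overlapped each other. Against wild-type macrophages Socs3 was 2.69-fold lower in knock-out (log2 fold change −1.43, standard error 0.0827, adjusted p = 2.279e-13) and 2.99-fold lower in ΔTAD macrophages (log2 fold change −1.58, standard error 0.0835, adjusted p = 3.29e-14). The ΔTAD value of Socs3 was −1.61 without ΔTAD replicate 1. Between knock-out and ΔTAD macrophages it was 0.15, with a 95% interval of −0.06 to 0.36 (adjusted p = 0.2277). Of all genes tested, 4.77% had a larger absolute change than Socs3 in knock-out and 4.42% in ΔTAD macrophages. For Il10rb these shares were 11.5% and 7.7%, and for Stat3 72.3% and 74.6%. The promoter printed above with its STAT match TTCTTAGAA belongs to this gene.

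Socs1 (ENSMUSG00000038037), on the minus strand of chromosome 16 from 10782240 to 10785536, encodes the inhibitor that binds JAK kinases directly and restrains interferon signalling. It had 4 counts in each wild-type library, 1, 5 and 5 in the knock-out and 4, 4 and 5 in the ΔTAD libraries. These values lie at the edge of detection and did not pass the filter on low counts. When all genes with a count were tested, the log2 fold change of Socs1 was −0.10 (standard error 0.67, adjusted p = 0.988) in knock-out and 0.08 (standard error 0.65, adjusted p = 1) in ΔTAD macrophages. A difference in Socs1 was not detectable at this depth.

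Levels of different genes were compared per length, as FPKM, the TMM-scaled CPM divided by the exon length in kilobases. In wild-type macrophages the order of levels per length was Jak1 at 28.5 ± 0.890 FPKM (SD, n = 3), Il6st at 10.6 ± 0.418, Socs3 at 9.12 ± 0.678, Il6ra at 8.80 ± 0.125, Jak2 at 7.21 ± 0.37, Stat3 at 6.93 ± 0.294, Il10rb at 6.54 ± 0.759, Tyk2 at 5.83 ± 0.248, Il10ra at 1.51 ± 0.232 and Socs1 at 0.0772 ± 0.00766 FPKM. Socs3 and Il6ra, Jak2 and Stat3, Stat3 and Il10rb, and Il10rb and Tyk2 differed by no more than the larger SD of each pair. In the edited genotypes Socs3 moved from the third place of 10 to place 8 in knock-out (3.40 ± 0.251 FPKM) and place 9 in ΔTAD macrophages (3.06 ± 0.201 FPKM). Il10rb moved the other way, from place 7 to place 3 (11.6 ± 0.502 FPKM) and place 2 (14.7 ± 0.426 FPKM). Il10ra stayed under the other receptor genes in every genotype, at 2.29 ± 0.322 FPKM in knock-out and 3.31 ± 0.312 FPKM in ΔTAD macrophages. Neighbours in the order that differed by no more than the larger SD were Jak2 and Il6ra in knock-out and Il10ra and Socs3 in ΔTAD macrophages. Without ΔTAD replicate 1, Socs3 (3.06 FPKM) again took place 9 and Il10rb (14.5 FPKM) place 2. The order depended on the length used. With the longest transcript in place of all exons, the wild-type order was Jak1 (42.0 FPKM), Il6st (13.6), Stat3 (10.9), Socs3 (10.3), Il10rb (8.92), Il6ra (8.80), Tyk2 (8.29), Jak2 (7.21), Il10ra (1.51) and Socs1 (0.0772), and Socs3 took place 8 and Il10rb places 3 and 2 in knock-out and ΔTAD macrophages.

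**Figure D3:**
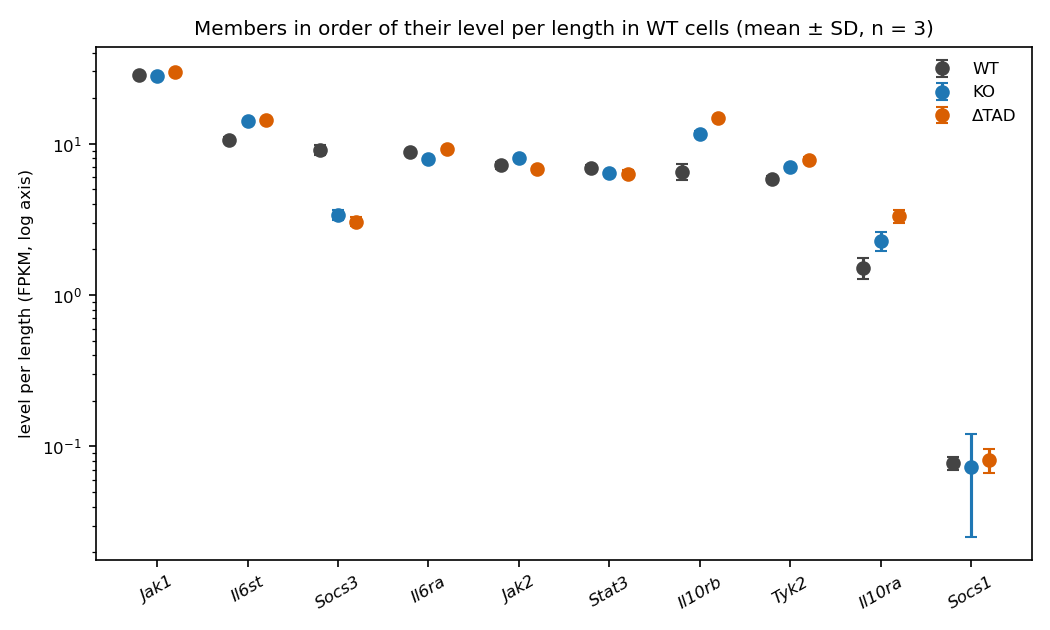
Level per length (FPKM, log axis) of the 10 genes as mean and SD (n = 3) in each genotype, ordered by the wild-type level. Socs3 drops from 9.12 FPKM in wild-type to under 4 FPKM in both edited genotypes, Il10rb rises to 11.6 and 14.7 FPKM, and Socs1 stays under 0.1 FPKM on average.

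The surroundings of the genes in the genome were examined as well. Over the tested genes of each gene's chromosome, medians of the log2 fold change lay between −0.03 (chromosome 11) and 0.00 for knock-out and between −0.05 (chromosome 3) and 0.03 (chromosome 4) for ΔTAD macrophages. Within 2 Mb on either side of Socs3, the median over the 60 other tested genes was 0.11 in knock-out (19 higher, 17 lower) and 0.14 in ΔTAD macrophages (25 higher, 14 lower) on the log2 scale. Within the same distance of Il10rb, the 33 other tested genes had a median of −0.18 in knock-out (6 higher, 15 lower) and −0.16 in ΔTAD macrophages (6 higher, 16 lower). Of all genes tested, 22.8% were higher and 22.4% lower in knock-out and 26.3% and 23.4% in ΔTAD macrophages. Leaving out ΔTAD replicate 1 gave the same numbers of called neighbours in ΔTAD macrophages for both genes. Both genes thus lay on the other side of 0 from the median of their neighbours. For Il10ra (52 neighbours) the medians were −0.01 and −0.02, and for Il6st (14 neighbours) −0.15 and −0.01.

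Il10rb stands in a cluster of receptor genes of one family, between the interferon alpha and beta receptor genes Ifnar2 (start 33.4 kb before that of Il10rb) and Ifnar1 (79.1 kb after it), with the interferon gamma receptor gene Ifngr2 140.9 kb after it. These were named for their position. Against wild-type, knock-out macrophages had a log2 fold change of 0.17 for Ifnar2 (adjusted p = 0.0082), 0.44 for Ifnar1 (adjusted p = 4.31e-09) and 0.05 for Ifngr2 (adjusted p = 0.248, not called). In ΔTAD macrophages all 3 were called, at 0.41 for Ifnar2 (adjusted p = 1.54e-07), 0.59 for Ifnar1 (adjusted p = 1.48e-11) and 0.30 for Ifngr2 (adjusted p = 8.02e-08). Each of these values was under the 0.83 and 1.16 of Il10rb in the same genotype, and the differences between the genes were not tested.

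**Figure D4:**
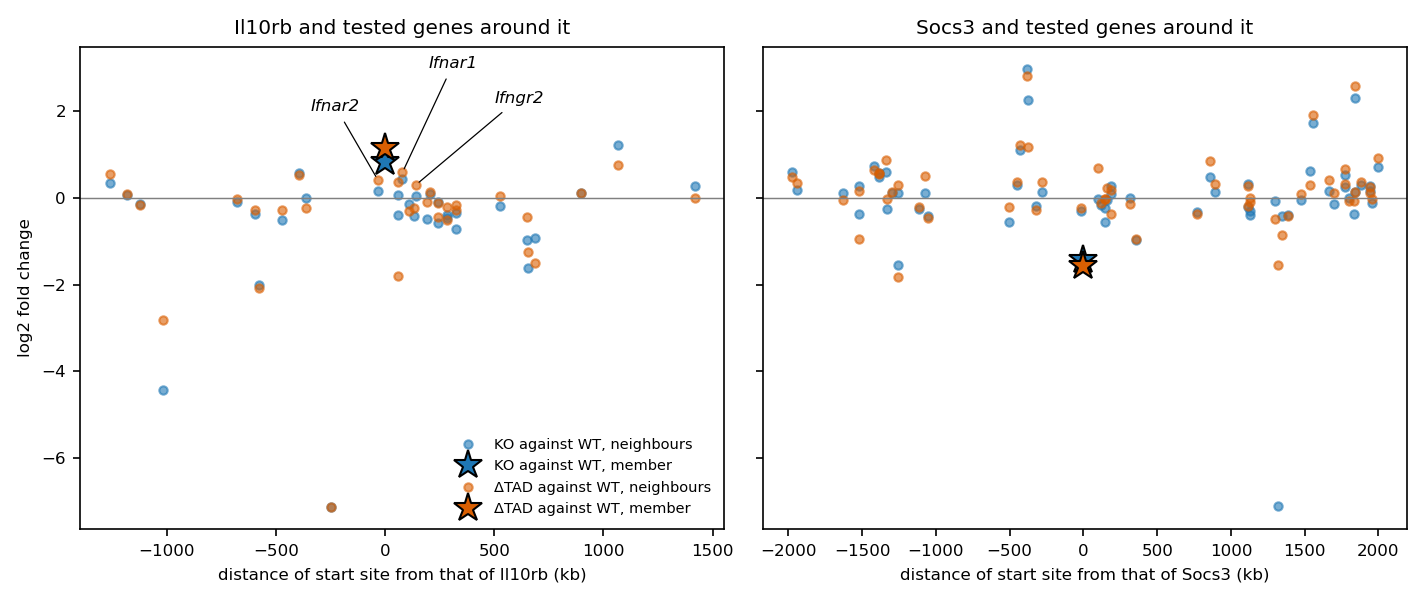
Log2 fold changes against wild-type macrophages of Il10rb and Socs3 (stars) and of the tested genes within 2 Mb (points), by distance between start sites in kb. Il10rb lies above nearly all of its neighbours and the interferon receptor genes are named, Socs3 lies below nearly all of its own, and the points near −7 are fitted values of Gm41492 (both edited genotypes) and Cygb (knock-out), which had 0 counts there and whose fold change is not a measured size.

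Over the 9 libraries, Socs3 had the widest span of genotype means of the 9 genes, 1.57 on the log2 CPM scale. The genes whose centred log2 CPM profile differed least from it among 11981 candidates, by root mean square over the 9 libraries, were Ndrg1 (0.0938), Sipa1l1 (0.0944) and Zfp516 (0.113). Their mean levels in wild-type, knock-out and ΔTAD macrophages were 243, 99.7 and 85.6 CPM for Ndrg1, 69.8, 26.6 and 21.7 CPM for Sipa1l1 and 37.7, 14.4 and 14.8 CPM for Zfp516. All points of such a profile share their library's depth and scaling, and the likeness is a description.

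The rest of the pathway was described from 5 lists of 71 genes, of which 50 were tested. The test called 30 in knock-out (24 higher, 6 lower) and 40 in ΔTAD macrophages (30 higher, 10 lower), which is 60% and 80% of those tested beside 45.2% and 49.7% of all genes. The 50 log2 fold changes had medians of 0.17 (knock-out) and 0.29 (ΔTAD), against 0.00 over all genes in both. Leaving out ΔTAD replicate 1, 38 were called in ΔTAD macrophages. The lists were chosen with earlier results of these data known, so these shares and medians describe the lists and cannot test the pathway. Both comparisons share the wild-type libraries, so their values are given side by side without a measure of likeness.

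Transcripts of the ligands IL-6 and IL-10 were at or near 0. Il10 had 0 counts in all 9 libraries, which allows up to 0.143 to 0.21 CPM per library, and Il6 had 1 count in 1 library. Of 14 ligand genes 3 were tested, and 8 stayed at or under 3 counts in every library. Ebi3, the gene for a chain of IL-27, was 6.48 CPM in wild-type, 16.7 CPM in knock-out and 24.3 CPM in ΔTAD macrophages, with log2 fold changes of 1.37 (adjusted p = 1.276e-12) and 1.90 (adjusted p = 4.719e-16). Il27, the gene for the other chain, was hardly detected (means of 0.0911, 0.0956 and 0.135 CPM) and was not tested. Osm, a ligand that signals through gp130, fell by 0.41 on the log2 scale in knock-out and by 1.17 in ΔTAD macrophages, from 11.2 CPM to 8.37 and 4.92 CPM. Its own partner chains for gp130, Osmr and Lifr, had 0 counts in all 9 libraries.

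Of 14 other receptor genes that use these kinases, 7 were tested and those called were all higher, 3 in knock-out (42.9%, beside 45.2% of all genes) and 6 in ΔTAD macrophages (85.7%, beside 49.7%). Ifngr1, the ligand-binding chain for interferon gamma, rose by 0.62 in knock-out (adjusted p = 5.737e-08) and 0.82 in ΔTAD macrophages (adjusted p = 2.928e-10) on the log2 scale. Il27ra, which pairs with gp130, rose by 1.01 in ΔTAD macrophages (adjusted p = 0.003794) from a low level of 0.836 CPM, and had 0.79 in knock-out macrophages, where it was not called (adjusted p = 0.02772). Of the 6 other JAK and STAT genes tested, 4 were called higher in knock-out (66.7%) and 5 in ΔTAD macrophages (83.3%). Of all genes tested, 22.8% and 26.3% were called higher. On the log2 scale, Jak3 had 0.49 in knock-out and 0.12 in ΔTAD macrophages, the latter not called (adjusted p = 0.3604). Stat2 (0.40 and 0.45) and Stat5b (0.37 and 0.40) were called higher in both.

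Of 15 other negative regulators 13 were tested, of which 5 were higher and 1 lower in knock-out and 6 higher and 3 lower in ΔTAD macrophages. These are 46.2% and 69.2% of the 13, beside 45.2% and 49.7% of all genes. The fall of Socs3 was not shared by Socs5, which was 1.86-fold higher in knock-out (log2 fold change 0.90, adjusted p = 2.018e-12) and 1.71-fold higher in ΔTAD macrophages (0.78, adjusted p = 2.95e-11). Pias3, an inhibitor of STAT3 binding to DNA, rose by 0.68 and 0.77 on the log2 scale. Small falls were called for Socs7 in both edited genotypes (−0.21 and −0.15) and for Socs4 (−0.26) and Socs6 (−0.25) in ΔTAD macrophages. In knock-out macrophages Socs4 had 0.04 and Socs6 −0.02, neither of which was called.

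All 21 genes of the list of STAT3 targets and IL-10 response genes were tested. Knock-out macrophages had 11 higher and 4 lower, ΔTAD macrophages 12 higher and 5 lower, so the list did not move one way. The called genes are 71.4% and 81% of the 21, beside 45.2% and 49.7% of all genes. Pim1, a kinase gene induced by STAT3, fell like Socs3, from 52.9 CPM in wild-type to 24.6 CPM in knock-out (log2 fold change −1.11, adjusted p = 2.108e-14) and 23.3 CPM in ΔTAD macrophages (−1.18, adjusted p = 4.945e-15). Nfil3, a repressor gene that IL-10 induces, had −0.67 (adjusted p = 2.429e-09) and −1.06 (adjusted p = 1.023e-12). Myc, a growth regulator in the same list, went the other way, as did most called genes of the list. It rose from 2.54 CPM to 26.9 CPM in knock-out (3.39, adjusted p = 3.13e-18) and 24.0 CPM in ΔTAD macrophages (3.23, adjusted p = 8.6e-18). Dusp1, a phosphatase of MAP kinases, was 1.78 higher on the log2 scale in knock-out (adjusted p = 1.31e-13) and 1.56 higher in ΔTAD macrophages (adjusted p = 2.095e-12). Fos, an AP-1 subunit, was 1.07 higher in knock-out (adjusted p = 4.543e-11) and 2.39 higher in ΔTAD macrophages (adjusted p = 5.874e-19).

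**Figure D5:**
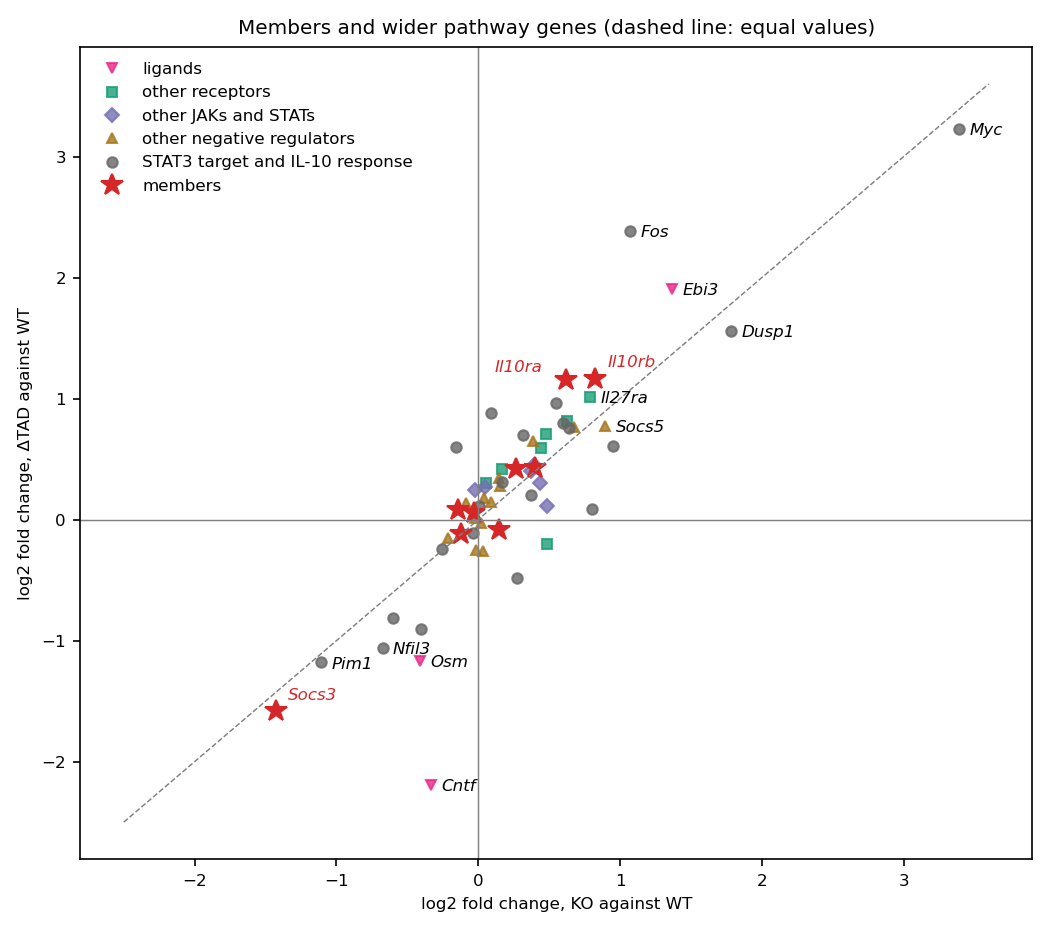
Log2 fold changes of the 9 tested genes (stars) and of the 50 tested genes of the wider pathway lists, knock-out against wild-type on the x axis and ΔTAD against wild-type on the y axis, which share the wild-type libraries. Socs3 lies at the lower left with Pim1, Il10ra and Il10rb at the upper right above the line of equal values, Myc at the far upper right, and Cntf, a gene of low level, at −2.19 on the y axis.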

How the data were processed

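Total RNA depleted of ribosomal RNA was sequenced by the authors as single reads, trimmed with Trimmomatic, aligned to GRCm38 with Hisat2 and counted on Ensembl genes with HTSeq. The deposited values are raw counts per gene, 1 list per library, with 5 tally lines that were left out. The mode and strand setting of the counting are not given in the sources used here. Genes received 46.65% to 53.23% of each library's records. Counts were fitted with edgeR 4.0.16 in R 4.3.3 (filterByExpr with a minimum count of 10 and a minimum total of 15, TMM scaling, 1 quasi-likelihood model of 3 genotypes over 9 libraries, Benjamini-Hochberg adjustment). The threshold of 0.01 is that of the study. Its test is not named in the sources used here, and it reported fewer changed genes than were called here. Standard errors are the log2 fold change over the root of the F statistic. Positions and exon lengths are from GENCODE on GRCm38. The 10 genes, the wider lists and the rule for named genes were chosen with earlier results of these data known. The rule names all 10 genes, Cebpd, the 2 highest and 2 lowest called genes of at least 1 CPM per list and edited genotype, and the 3 nearest profiles to Socs3. Il6, Il10, Il27, Osmr, Lifr, Cntf and the neighbours of Il10rb and Socs3 were named beyond it. Alternatives tried were limma-voom (limma 3.58.1), DESeq2 1.42.0, other scalings, filters and thresholds, models of only the genotypes compared, a replicate block, leaving out each library and, chosen after seeing the data, an offset for GC content and length and levels per length without ΔTAD replicate 1. The steps were tested on simulated data with known changes in knock-out only. These data held far fewer changed genes than were called here and no outlying library such as ΔTAD replicate 1. No protein sequences were used here. One gene that the rule names is not reported here.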

Additional observations from a re-analysis of the deposited data

Results flagged for a closer look

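Knock-out and ΔTAD macrophages differed directly, at an adjusted p-value under 0.01 in edgeR's quasi-likelihood test, for 4 of the 9 tested genes, for 7 of the genes that the rule names in the wider lists and for Ifnar2 and Ifngr2, which were named for their position. As log2 fold changes of knock-out against ΔTAD macrophages, these were −0.22 for Il6ra, −0.54 for Il10ra, −0.33 for Il10rb and 0.23 for Jak2. Il10ra and Il10rb were higher than in wild-type macrophages in both genotypes and higher still in ΔTAD macrophages. In the wider lists the value was −0.54 for Ebi3, −0.15 for Ifnar1, −0.25 for Ifnar2, −0.25 for Ifngr2 and −1.32 for Fos, which were lower in knock-out than in ΔTAD macrophages. It was 0.76 for Osm, 0.37 for Jak3, 0.30 for Socs4 and 0.38 for Nfil3, which were higher in knock-out macrophages. Of all genes tested, 33.0% differed between these genotypes, beside 44.4% of the 9 genes and 54% of the 50 tested genes of the wider lists. The rule picked genes of the wider lists by their change against wild-type. The rule also named Ifngr1, Il27ra, Stat2, Stat5b, Socs5, Socs6, Socs7, Pias3, Pim1, Myc and Dusp1, none of which was called between these genotypes. The 54% describes all 50 tested genes of the lists and not the named ones. Differences between clones and between edits cannot be told apart here.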

How the results depend on the processing

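Of 513 log2 fold changes of the 9 genes under the alternatives, 488 kept their direction and their side of the threshold, 5 lost a call, 12 gained one and 8 changed sign. All 8 changes of sign concerned differences that were not called. With library size as the only scaling they were Il6ra (−0.01085) and Jak1 (−0.03693) in ΔTAD against wild-type and Il6st (0.05147) in knock-out against ΔTAD macrophages. Il6st in the last comparison was also 0.0058 when only the 2 genotypes were fitted and ran from −0.0314 to 0.00036 when each library was left out in turn, above 0 without knock-out replicate 2. Stat3 in that comparison was −0.0160 without the filter on low counts and ran from −0.0165 (without knock-out replicate 1) to 0.0202 when each library was left out, with −0.0096 without ΔTAD replicate 1. The calls of Il10ra, Il10rb, Il6st, Tyk2 and Socs3 against wild-type held under every alternative run. With library size alone, Il6ra was not called in knock-out against wild-type (adjusted p = 0.0256) or against ΔTAD macrophages (adjusted p = 0.0522), and the number of wider pathway genes called between the edited genotypes fell from 27 to 17. That scaling also moved the share of calls that were higher from 52.9% to 39.6% in ΔTAD against wild-type and from 42.1% to 69% in knock-out against ΔTAD, and the median of all genes to −0.09 and 0.04. Stat3 was called in ΔTAD against wild-type with library size alone (−0.21), with at least 10 counts in every library (−0.14) and with the offset for GC content and length (−0.20), and with this offset also in knock-out (−0.13). Leaving out each library in turn gave 5 to 7, 5 to 6 and 3 to 5 called genes of the 9 in the knock-out, the ΔTAD and the direct comparison, and 26 to 31, 34 to 39 and 20 to 27 of the wider lists. Libraries with the same replicate number did not deviate together (correlations from −0.07 to 0.02). This gave no sign that the numbers pair them, but deviations from means of 3 libraries cannot exclude it. With the replicate number as a block, 6, 5 and 4 of the 9 genes were called, and no call of the 9 changed. Socs1 had too few counts for any statement on its direction, and Il10ra, with 88 to 269 counts, had the widest intervals of the other genes.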
